A study of Mus musculus with 8 samples.

Results

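The tumour necrosis factor (TNF) ligands, their receptors and the TRAF adaptor proteins were followed in mouse brain after 17 h of fasting. Members were chosen by gene symbol: every non-control probe named for a Tnfsf, Tnfrsf or Traf1 to Traf7 gene, or for Tnf, Eda, Edar, Fas, Cd40 or Ngfr. This took 58 probes for 43 genes, of 22237 genes with a RefSeq name on the array: 12 ligands, 24 receptors and 7 TRAF adaptors. RNA was measured on 8 single-colour Agilent arrays, with 4 from fasted mice and 4 from mice that were fed over the same 17 h. The labels name no strain, sex, age or brain region, and they do not say that each array is a separate mouse, so the p-values below describe spread among arrays that could be technical. Each value is the log2 of the processed signal minus the 75th percentile of its own array. A probe was tested when it was well above background on at least 4 of the 8 arrays, whichever the group. This held for 42 of the 58 probes (72.4%, against 66.1% of all probes). It held for 31 of the 43 genes (72.1%, against 71.9% of all genes). The family was selected on differences between these fasted and fed arrays. Its differences are therefore given as a description, without their p-values, and they support nothing by themselves. Calls of family genes between fasted and fed arrays only mark which members passed a threshold. Neither these calls nor their keeping or loss in other fits is support.

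TNF ligands are membrane or secreted proteins that bind receptors as trimers. Some receptors carry an intracellular death domain that recruits adaptors and caspases, others bind TRAF proteins and switch on NF-kB and stress kinases, and decoy receptors bind ligand without passing on the signal. In brain the family is best known from microglial and astrocytic responses to injury, from synaptic scaling by TNF and from the neurotrophin receptor p75 on neurons and glia.

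The sequences that carry the signal of the 7 called genes are shown first, because each of these genes is read through 1 kept probe, or 2 for Tnfsf12. Each line gives a 30-base stretch of the 60-base probe, 5′ to 3′ along the transcript, and capitals mark a polyadenylation signal hexamer (AATAAA or ATTAAA) where the probe holds one.
Tnfrsf25: tttggacttggtATTAAAtttcgtaagaaa
Tnfrsf23: gagcaatattccAATAAAactgtgtttaat
Traf1: ctggactgagttcctatgttaacagacacg
Traf5: gtggatttaactgacttggaggatctgtag
Ngfr: ttcatgttccctgacacttcccctttgcat
Tnfsf12: acctactttggactctttcaagttcactga
Traf3: tctgctgctaatAATAAAgtttgtaagact
In mm9, the build of the array design, these stretches lie at chr4:151494187-151494216 on the plus strand for Tnfrsf25, chr7:150851721-150851750 on the minus strand for Tnfrsf23, chr2:34798882-34798911 on the minus strand for Traf1 and chr1:193821311-193821340 on the minus strand for Traf5. Those of Ngfr and Tnfsf12 lie at chr11:95430211-95430240 and chr11:69500342-69500371, both on the minus strand, and that of Traf3 at chr12:112505268-112505297 on the plus strand. Either hexamer was present in 16.7% of all 39429 probes and in 11 of the 58 family probes. The exon or untranslated region under each probe was not analysed here.

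A receptor for the ligand TL1A, a TRAIL decoy receptor and 3 of the 7 TRAF adaptors were among the 7 family genes called lower in fasted brain, at an adjusted p under 0.05 in the limma fit over all probes. None was called higher, with 2 on the higher side at an unadjusted p under 0.05. Over all 15995 genes tested, 18.4% were called, 9.46% higher and 8.96% lower, and the family's 7 of 31 was not read against these percentages because the rule used the same contrast. The median log2 difference, fasted minus fed, was -0.03 over the 31 genes and -0.01 over all genes. The family held 18 genes on the lower side and 13 on the higher side. Fasted and fed values did not overlap for 9 of the 31 genes, 8 lower and 1 higher, where 26.9% of all genes had such groups. With the replicate number as a block, 4 of the 7 stayed called: Tnfrsf25, Tnfrsf23, Traf1 and Traf5. Ngfr, Tnfsf12 and Traf3 lost their call in that fit. In this bulk tissue, fewer cells of a type and less RNA per cell cannot be told apart. Fasted arrays sat at positions 1 and 3 of each slide and fed arrays at 2 and 4, so position and fasting cannot be told apart either.

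**Figure D1:**
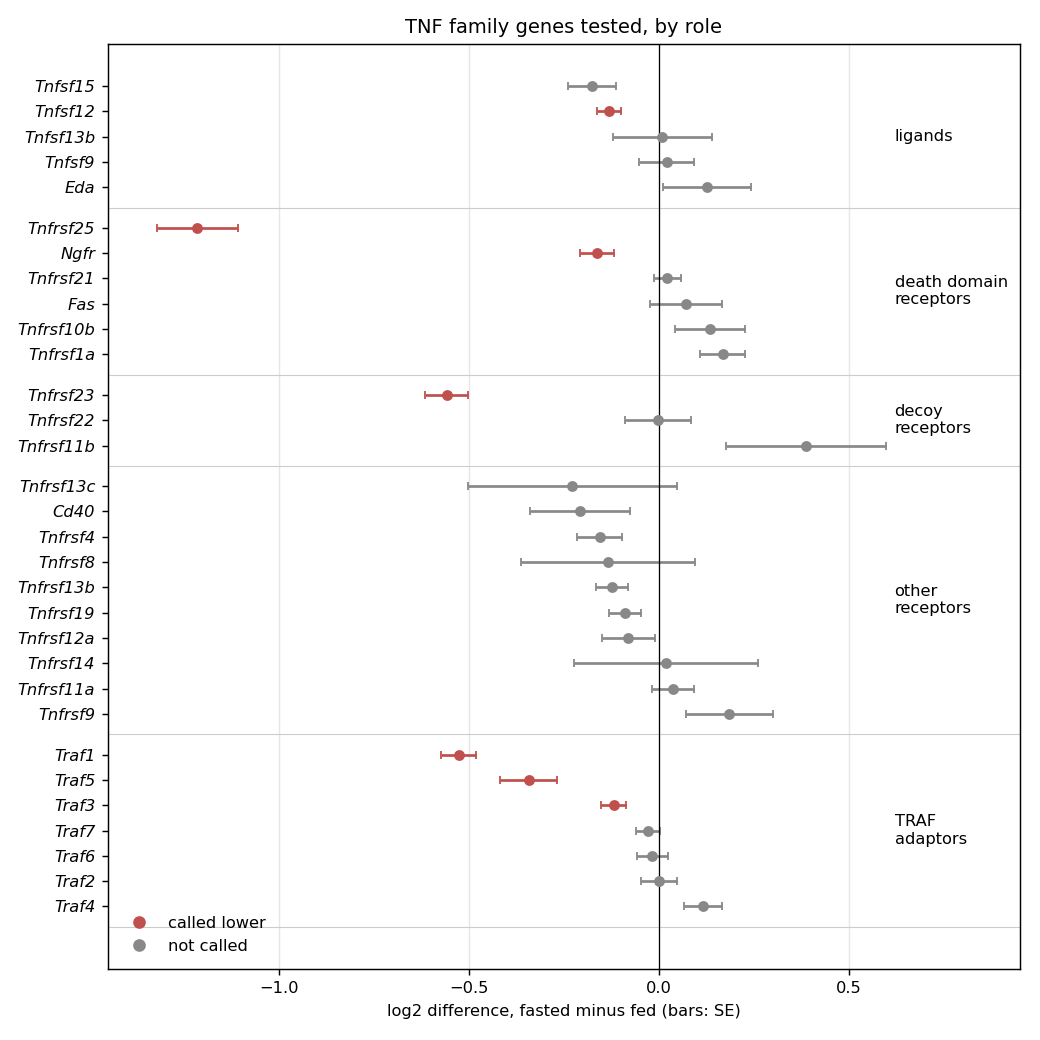
Log2 difference, fasted minus fed, with its SE for each of the 31 family genes tested, grouped by role. Tnfrsf25 stands farthest from 0 at -1.22, Tnfrsf23, Traf1 and Traf5 follow among the called genes in red, and the 24 genes not called lie between -0.23 and 0.39.

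Of the 12 ligand genes, 6 were above background on no array, and 5 (Tnfsf9, Tnfsf12, Tnfsf13b, Tnfsf15 and Eda) were well above background on all 8 arrays. Tnf itself, measured by 10 spots per array, was above background on 0 of 8 arrays, as were Tnfsf4, Tnfsf8, Tnfsf11, Tnfsf14 and Tnfsf18, the ligands of OX40, CD30, RANK, HVEM and GITR. Tnfsf10, which encodes TRAIL, was above background on 0 fasted arrays and 1 fed array, and no fold could be given. A probe below background does not show that the RNA is absent.

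Tnfsf12 encodes TWEAK, a ligand that acts through Fn14. Its brighter probe read -0.88, -0.94, -0.90 and -0.93 on the fasted arrays, against -0.82, -0.74, -0.77 and -0.79 on the fed arrays. Every fasted value lay below every fed value, with means of -0.91 ± 0.03 in fasted and -0.78 ± 0.03 in fed brains (SD, n = 4 each). The log2 difference was -0.13 ± 0.03 (SE) in fasted brain. Its second probe gave -0.10 ± 0.05 (SE) and was not called. The call was lost without fasted replicate 2 or 4 or fed replicate 2 or 3, and over the 8 such fits the difference ran from -0.14 to -0.12. Under normexp background correction the call of Tnfsf12 was lost as well.

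Tnfsf15 encodes TL1A, the ligand of the receptor gene with the largest difference in the family. It was not called, and was among the 3 family genes that ranked next after those called. Values were -3.00, -2.93, -2.80 and -2.82 on fasted arrays, against -2.71, -2.65, -2.64 and -2.84 on fed arrays, and the groups overlapped through fed replicate 4. The difference was -0.18 ± 0.06 (SE), and -0.29 on slide 1 and -0.07 on slide 2. The other ligands tested, Tnfsf9, Tnfsf13b and Eda, ranged from 0.01 to 0.13, with SEs of 0.07 to 0.13.

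**Figure D2:**
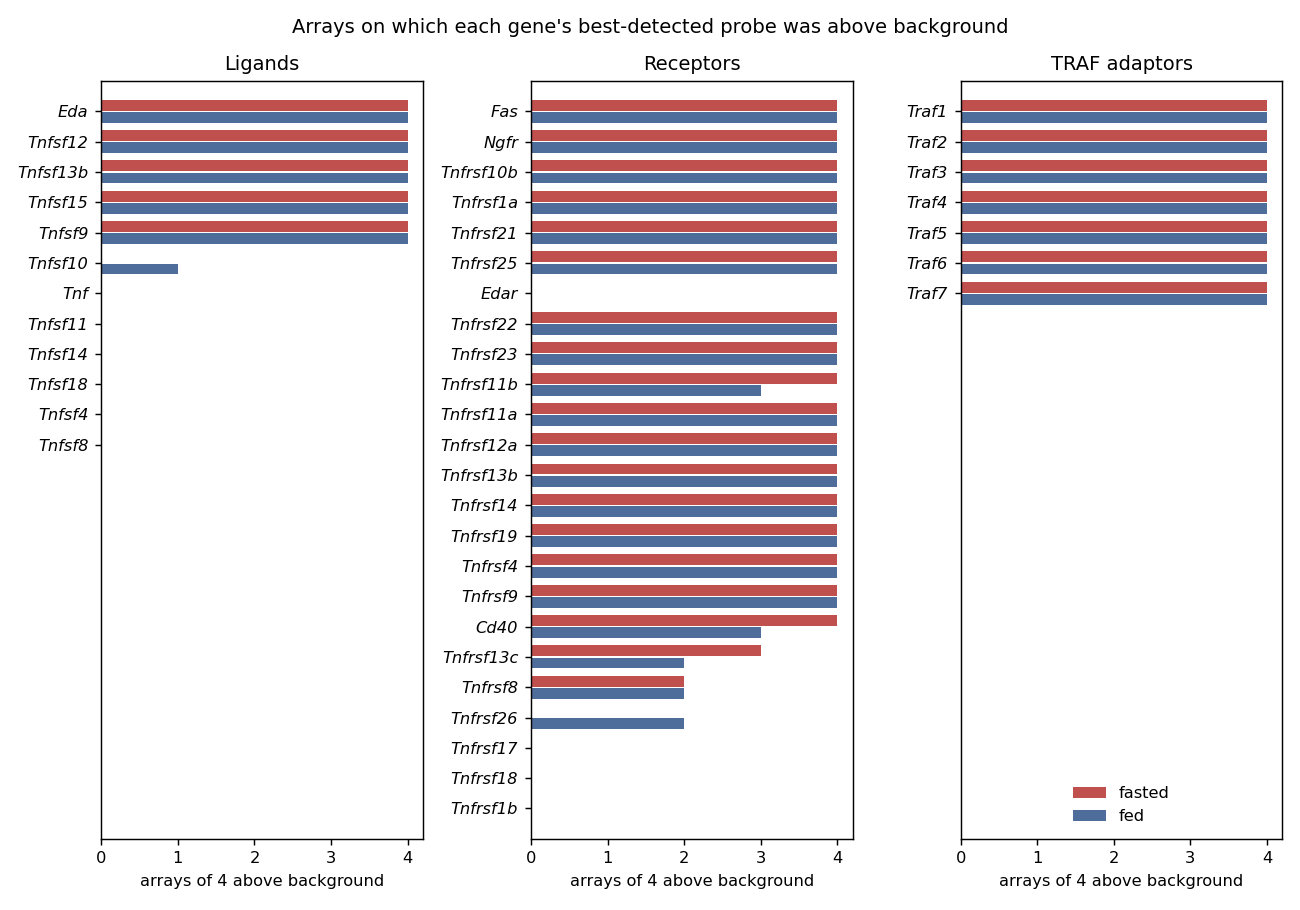
Number of the 4 fasted (red) and 4 fed (blue) arrays on which the best-detected probe of each of the 43 family genes was well above background; no bar means 0 arrays. Of the 12 ligands, 5 fill both bars, as do all 7 TRAF adaptors, and Tnfsf10 and Tnfrsf26 were above background on fed arrays only, 1 and 2 of 4.

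Of the 24 receptor genes, 15 were above background on all 8 arrays and 19 were tested. The other 4 tested receptors, Tnfrsf11b, Cd40, Tnfrsf13c and Tnfrsf8, were above background on 4, 4, 3 and 2 fasted arrays, against 3, 3, 2 and 2 fed arrays, and their errors are the widest along with that of Tnfrsf14. Edar, Tnfrsf1b, Tnfrsf17 and Tnfrsf18 were above background on no array. Ligand and receptor were both seen on all 8 arrays for Tnfsf15 with Tnfrsf25, for Tnfsf12 with Tnfrsf12a, for Tnfsf9 with Tnfrsf9 and for Tnfsf13b with Tnfrsf13b. For Tnfrsf9 this rests on its brighter probe, which ends in a repeat, and its dimmer probe was above background on 3 fasted and 4 fed arrays. Tnfrsf1a, the broadly expressed TNF receptor, was seen on all arrays without Tnf. Tnfrsf11a (RANK) was seen without its ligand Tnfsf11, and Eda was seen without its receptor Edar.

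Tnfrsf25 encodes death receptor 3, a death domain receptor best known as a costimulator of T cells. It read -0.40, -0.24, -0.29 and 0.14 on the fasted arrays, against 0.96, 1.03, 1.01 and 1.05 on the fed arrays. The 4 fed values were close together and well above all 4 fasted values, of which replicate 4 was the highest. Means were -0.20 ± 0.24 in fasted and 1.01 ± 0.04 in fed brains (SD, n = 4 each). The log2 difference was -1.22 ± 0.11 (SE), so the signal was 2.32-fold lower in fasted brain. Of the 15995 genes tested, 4 had a difference this low or lower, Tnfrsf25 included. The difference was -1.32 within slide 1 and -1.11 within slide 2, and the gene stayed called with any one array left out, between -1.33 and -1.15.

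The gene next to Tnfrsf25, Plekhg5, was called higher in fasted brain (log2 difference 0.22 ± 0.04 SE, adjusted p = 0.00828), and its other neighbour, Espn, was not called (-0.19 ± 0.21 SE, adjusted p = 0.561). Both were taken by position in the RefSeq gene table. Of the neighbours of the other 6 called genes, Rcor1 beside Traf3 was called lower (-0.19 ± 0.03 SE, adjusted p = 0.00677), and Amn beside Traf3 (0.36 ± 0.06 SE, adjusted p = 0.00622) and Rcor3 beside Traf5 (0.27 ± 0.05 SE, adjusted p = 0.00739) were called higher. The remaining tested neighbours of these genes were not called. Of all genes tested, 18.4% were called in either direction.

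Because Tnfrsf25 is known from T cells, T and B cell markers were read beside it. Of 11 such markers on the array, 6 were tested and 0 were called (0 also at an unadjusted p under 0.05 in limma); 4 were above background on no array (Cd2, Cd3d, Cd3g and Ms4a1). Their summed level, as a multiple of the 75th percentile, ranged from 1.83 to 2.22 on fasted arrays and from 1.90 to 2.24 on fed arrays. This sum adds linear signals and is weighted to Cd4, the brightest marker (mean log2 values of 0.20 in fasted and 0.25 in fed). The next brightest was Cd3e (-1.22 and -1.23). The sum is therefore a poor measure of T and B cells as a whole. Lck, a kinase of the T cell receptor, had a difference of -0.09 ± 0.05 (SE, adjusted p = 0.279). Their part in the difference of Tnfrsf25 was not tested.

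**Figure D3:**
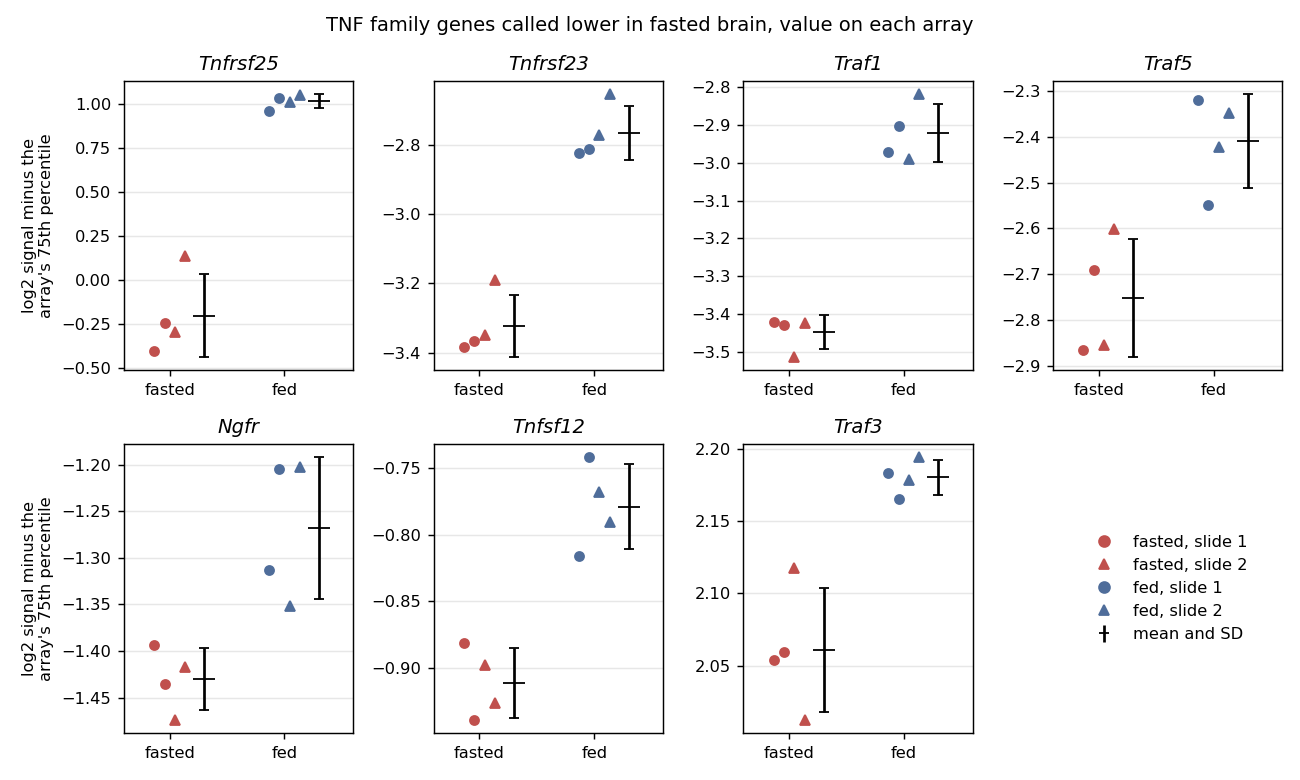
Value on each array (log2 signal minus the array's 75th percentile) of the 7 family genes called lower, with fasted arrays on the left and fed arrays on the right of each panel; circles are slide 1, triangles slide 2, and black marks the mean and SD of 4 arrays. Each panel has its own scale, and in each the fasted and fed arrays do not overlap. The differences of the means run from -1.22 for Tnfrsf25 to -0.13 for Tnfsf12 and -0.12 for Traf3.

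Ngfr encodes p75, the low-affinity neurotrophin receptor, which can relay death or survival signals. It read -1.39, -1.44, -1.47 and -1.42 on fasted arrays, against -1.31, -1.20, -1.35 and -1.20 on fed arrays. The groups did not overlap but came within 0.1 of each other. Means were -1.43 ± 0.03 in fasted and -1.27 ± 0.08 in fed brains (SD, n = 4 each), a difference of -0.16 ± 0.04 (SE). Its 10 spots per array spread by 0.02 to 0.07 (SD of log2). The call held in 1 of the 8 fits with an array left out, that without fed replicate 3, and the difference ran from -0.19 to -0.14.

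Tnfrsf1a, which encodes the main signalling receptor for soluble TNF, was on the higher side and just outside the threshold. It read -0.82, -0.73, -0.57 and -0.80 on fasted arrays, against -0.91, -0.92, -0.93 and -0.83 on fed arrays. All 4 fasted values lay above all 4 fed values, the only such gene in the family, with a difference of 0.17 ± 0.06 (SE). A second probe of the gene, at chr6:125311922-125311981 in mm9 against chr6:125312376-125312435 for the first, gave -0.02 ± 0.05 (SE) and overlapping groups. The direction of Tnfrsf1a therefore rests on 1 of its 2 probes. The remaining death domain receptors tested, Tnfrsf10b (a TRAIL receptor), Tnfrsf21 (death receptor 6) and Fas, differed by 0.02 to 0.13.

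Tnfrsf23 encodes a mouse decoy receptor for TRAIL. It read -3.38, -3.37, -3.35 and -3.19 on fasted arrays, against -2.82, -2.81, -2.77 and -2.65 on fed arrays. The groups were fully separate, with means of -3.32 ± 0.09 in fasted and -2.76 ± 0.08 in fed brains (SD, n = 4 each). The difference was -0.56 ± 0.06 (SE), or 1.47-fold lower in fasted brain, and -0.56 within each slide. Tnfrsf23 stayed called with any one array left out. Under normexp background correction its difference was smaller, at -0.39. A second probe of the gene was above background on 0 of 8 arrays, so 1 probe carries the value.

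Tnfrsf22, a second TRAIL decoy receptor and the neighbouring gene, had a difference of 0.00 ± 0.09 (SE) and was not called. Its second probe gave 0.06 ± 0.11 (SE). The third gene of this cluster, Tnfrsf26, was above background on 0 fasted and 2 fed arrays and was not tested. The 3 genes are close paralogues, and cross-hybridisation between them was not tested. Tnfrsf11b, osteoprotegerin, a decoy for RANK ligand, had the highest difference in the family at 0.39 ± 0.21 (SE) but was not called. Its fasted values of -3.82 to -3.07 overlapped fed values of -4.04 to -3.33.

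None of the 10 tested receptors without a death domain or decoy function was called between fasted and fed brains. Of all genes tested, 18.4% were called in either direction, and this count was not read against that share. The differences of these 10 receptors ran from -0.23 to 0.19, with SEs of 0.04 to 0.27. Tnfrsf13b encodes TACI, a receptor for BAFF and APRIL on B cells, and was the nearest to the threshold. It read -3.39, -3.42, -3.48 and -3.49 on fasted arrays, against -3.38, -3.32, -3.34 and -3.24 on fed arrays. Its groups did not overlap, with fasted replicate 1 just below fed replicate 1, and the difference was -0.12 ± 0.04 (SE). It was called lower under normexp background correction. Its other 2 probes gave -0.15 and -0.04. Tnfrsf4 (OX40), Tnfrsf8 (CD30), Tnfrsf12a (Fn14), Tnfrsf13c (the BAFF receptor), Tnfrsf19 (TROY) and Cd40 were on the lower side, and Tnfrsf9 (4-1BB), Tnfrsf11a (RANK) and Tnfrsf14 (HVEM) on the higher side.

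The probes of Tnfrsf9, a costimulatory receptor of activated T cells, did not read alike. The brighter probe ends in a run of GT repeats, shown in capitals, which 0.175% of all probes hold at 8 repeats or more.
Tnfrsf9 brighter probe: taaaatcaGTGTGTGTGTGTGTGTGTGTGT
Tnfrsf9 dimmer probe: taacatatttgtctttaccttttttaaatc
They lie at chr4:150319612-150319641 and chr4:150319131-150319160 on the plus strand of mm9. The brighter probe gave a difference of 0.19 ± 0.12 (SE). The dimmer probe gave -0.53 ± 0.19 (SE), with fasted values of -4.72, -4.46, -4.07 and -5.05 against fed values of -4.11, -4.02, -4.15 and -3.88. Neither was called, and the direction of Tnfrsf9 depends on the probe. Cross-hybridisation of the repeat was not tested.

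All 7 TRAF adaptors were above background on all 8 arrays. Traf1, an adaptor without a RING domain that binds TRAF2 and is itself induced by NF-kB, read -3.42, -3.43, -3.51 and -3.42 on fasted arrays, against -2.97, -2.90, -2.99 and -2.82 on fed arrays. The groups were fully separate, by more than the range within either. Means were -3.45 ± 0.04 in fasted and -2.92 ± 0.08 in fed brains (SD, n = 4 each). The difference was -0.53 ± 0.05 (SE), or 1.44-fold lower in fasted brain, and it was -0.49 on slide 1 and -0.57 on slide 2. Traf1 stayed called with any one array left out. Under normexp background correction its difference was smaller, at -0.38.

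Traf5, which acts beside TRAF2 downstream of several TNF receptors, read -2.86, -2.69, -2.85 and -2.60 on fasted arrays, against -2.32, -2.55, -2.42 and -2.35 on fed arrays. Fasted replicate 4 and fed replicate 2 came within 0.1 of each other without overlap. The difference was -0.34 ± 0.08 (SE), or 1.27-fold lower in fasted brain. Its call was lost without fasted replicate 1, fed replicate 1 or fed replicate 4, and over the 8 such fits the difference ran from -0.39 to -0.31.

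Traf3 restrains the non-canonical NF-kB pathway by promoting the breakdown of the kinase NIK. It read 2.05, 2.06, 2.12 and 2.01 on fasted arrays, against 2.18, 2.17, 2.18 and 2.19 on fed arrays. The fed values lay within 0.03 of each other and above every fasted value. The difference was -0.12 ± 0.03 (SE), or 1.09-fold lower in fasted brain. The call held in 1 of the 8 fits with an array left out, that without fasted replicate 3, with differences of -0.14 to -0.10. It was lost with median scaling and with normexp.

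Traf2, Traf4, Traf6 and Traf7 were not called, with differences of -0.03 to 0.12 at their brighter probes. Dimmer probes of 3 of them gave -0.23 ± 0.09 (SE) for Traf2, -0.37 ± 0.14 and -0.09 ± 0.07 for the 2 further probes of Traf6, and -0.42 ± 0.14 for Traf7. None of these probes was called. No family gene had 2 probes called in opposite directions, and of 9 genes with more than 1 tested probe, 4 had probes of differing sign.

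The arrays lay on 2 slides with 2 fasted and 2 fed arrays on each, so the difference could be read within each slide. All 7 called genes were lower on both slides, which had to follow because their fasted and fed values did not overlap over all arrays. Over the whole family, 18 of 31 genes had the same sign on both slides, 58.1%, against 78.3% of all 15995 genes tested.

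**Figure D4:**
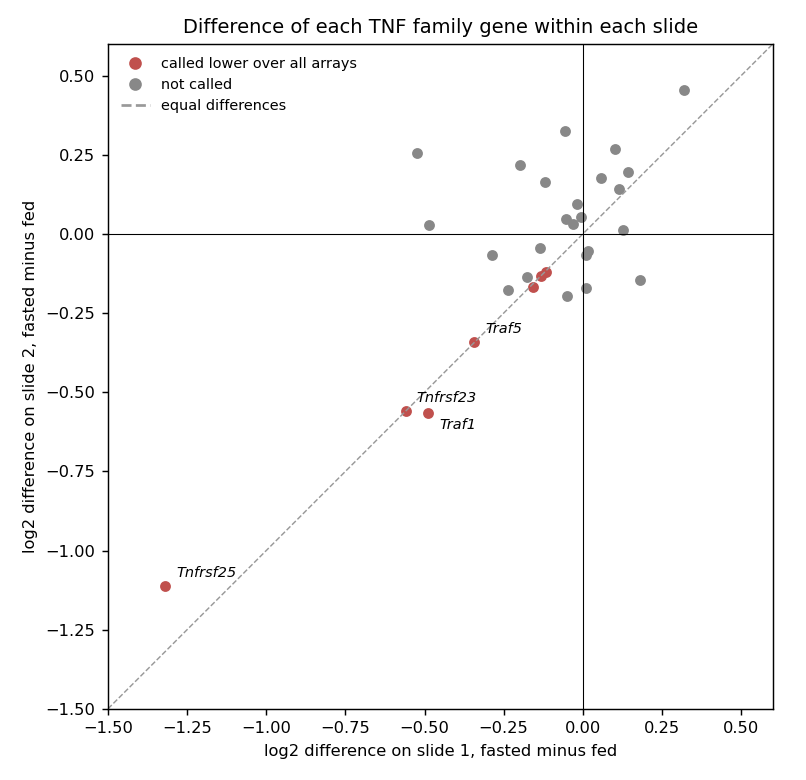
Log2 difference, fasted minus fed, within slide 1 (horizontal) and within slide 2 (vertical) for each of the 31 family genes; red marks the 7 genes called over all 8 arrays and the dashed line marks equal differences. The called genes lie close to the line, with Tnfrsf25 at -1.32 and -1.11, and most of the others scatter around 0.

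Slide 2 against slide 1 is a contrast that the choice of members did not use. It called 119 of 15995 genes (0.744%), and 1 of the 31 family genes, Tnfrsf14, which encodes HVEM, the receptor of LIGHT. On slide 2, Tnfrsf14 read -2.73 and -2.75 on fasted arrays and -2.72 and -2.45 on fed arrays. On slide 1 it read -3.11 and -3.30 on fasted arrays and -3.48 and -3.29 on fed arrays. The difference was 0.63 ± 0.10 (SE, adjusted p = 0.0463 in the limma fit). It missed the threshold without any one of the 8 arrays, with adjusted p of 0.0638 to 0.147 and differences of 0.54 to 0.70. With no filter on dim probes its adjusted p was 0.0896. Between fasted and fed brains Tnfrsf14 differed by 0.02 ± 0.24 (SE).

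Promoters were searched for letters known from inducible genes, in the 250 bases before each start in RefSeq windows of GRCm38.p6. Windows were found for 35 of the 43 genes. The NF-kB-like word GGNNTTTCC, on either strand, was held by 4.93% of all 32851 windows and by those of 5 family genes: Tnfrsf25, Traf3, Tnfrsf9, Tnfrsf13b and Edar. The matches of the 2 genes called lower are shown in capitals, each within 30 bases along the gene's strand.
Tnfrsf25: tgagacccagGGAAAAGCCcctggctctgg
Traf3, far match: gacccGGAAAGACCgggacgcgggcggggc
Traf3, near match: gcggcccgcgGGGATTTCCagcgcgcgaga
They lie at chr4:152115706-152115735, chr12:111166120-111166149 and chr12:111166351-111166380 in GRCm38.p6, all on the plus strand. The near match of Traf3 begins 9 bases before the start and reads along the gene, and the other 2 matches are on the opposite strand. The AP-1 word TGANTCA was in 6.75% of all windows and those of 5 family genes, the E-box CACGTG in 6.02% and those of 4, and the cyclic AMP response word TGACGTCA in 1.55% and those of 0. None of the 7 called genes held one of these 3 words in its window, where a window was found; Tnfsf12 had none. A match or its lack is a description of these letters only.

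Genes that carry the signal onward, outside the symbols of the rule, were read in 6 lists. Of 102 genes listed, 74 were tested, 5 were called higher and 8 lower in fasted brain, and their median difference was 0.00. The share called, 13 of 74, lay near the 18.4% of all genes. With the replicate number as a block 10 of the 13 stayed called, and Bid, Chuk and Arhgdia lost their call. Under normexp background correction 7 were called.

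**Figure D5:**
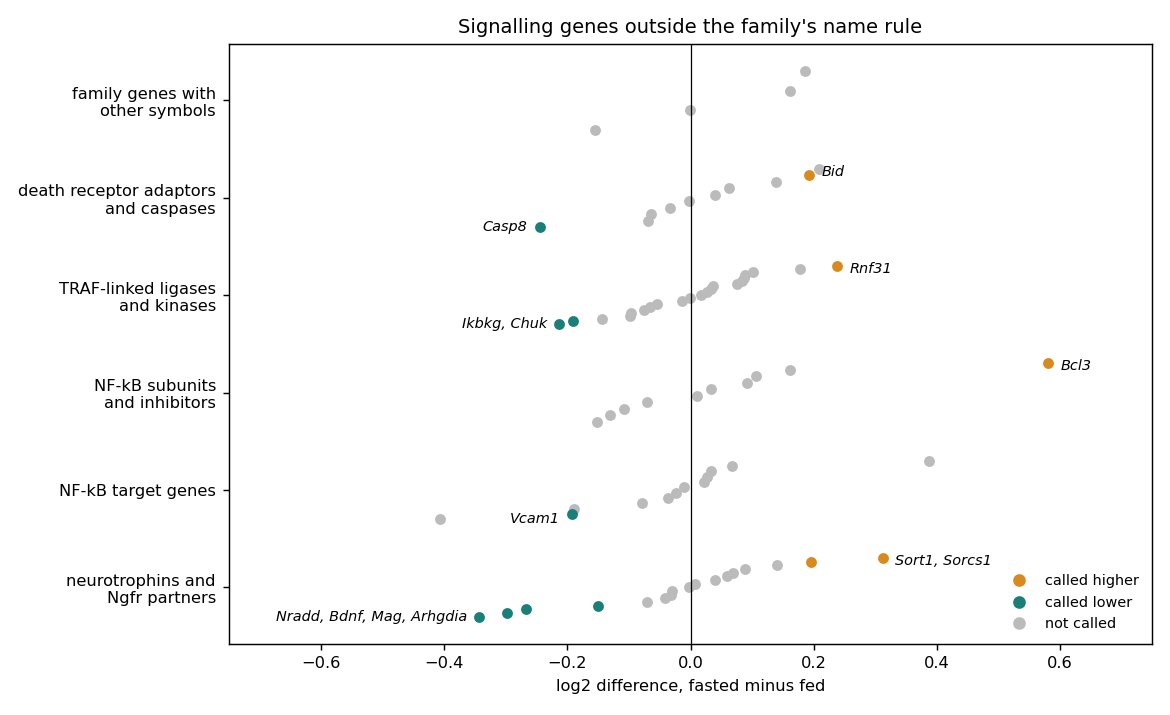
Log2 difference, fasted minus fed, of each of the 74 tested signalling genes in 6 lists; orange marks genes called higher, green genes called lower and grey genes not called. Within a list the points are spread vertically by rank only. Bcl3 lies highest of the called genes at 0.58, and Nradd lowest at -0.34.

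Of the death receptor adaptors and caspases, 1 of 10 tested was called higher and 1 lower, beside 18.4% of all genes called in either direction. Casp8, the initiator caspase recruited by death receptors, fell in fasted brain (-0.24 ± 0.05 SE, adjusted p = 0.0122). It read -3.66, -3.53, -3.66 and -3.62 on fasted arrays, against -3.42, -3.40, -3.28 and -3.40 on fed arrays. Bid, which Casp8 cleaves to engage mitochondria, rose (0.19 ± 0.04 SE, adjusted p = 0.0243, and 0.0638 with the replicate block). Of the family genes with other symbols, 4 of 9 were tested and 0 called (1 at an unadjusted p under 0.05 in limma); Relt had 0.19 ± 0.07 (SE, adjusted p = 0.0967) and Ltb 0.16 ± 0.08 (SE, adjusted p = 0.221). Fasl, Cd40lg, Cd70 and Eda2r were above background on no array.

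Of 21 tested TRAF-linked ligases and kinases, 1 was called higher and 2 lower, beside 18.4% of all genes called in either direction. Rnf31, the catalytic subunit of the linear ubiquitin ligase, rose by 0.24 ± 0.04 (SE, adjusted p = 0.00526). Chuk and Ikbkg, subunits of the IkB kinase, fell (-0.19 ± 0.05 SE, adjusted p = 0.0472, and -0.21 ± 0.05 SE, adjusted p = 0.0186), and Chuk had an adjusted p of 0.0823 with the replicate block. Among NF-kB subunits and inhibitors 1 of 10 was called: Bcl3, a nuclear IkB protein, rose by 0.58 ± 0.12 (SE, adjusted p = 0.0171). It read -3.65, -3.13, -3.41 and -3.71 on fasted arrays, against -4.04, -4.14, -4.09 and -3.96 on fed arrays. Casp8, Bcl3, Ikbkg, Chuk, Vcam1 and Arhgdia were the genes not called under normexp.

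Of 12 tested NF-kB target genes, 1 was called, beside 18.4% of all genes called in either direction. Vcam1, an endothelial adhesion molecule, fell by 0.19 on the log2 scale (SE 0.05, adjusted p = 0.0468). Il6, Il1b, Icam1, Sele, Saa3, Ccl7, Cxcl1 and Cxcl2 were above background on no array.

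Of 17 tested neurotrophins and p75 partners, 2 were called higher and 4 lower, where 18.4% of all genes were called in either direction. Sorcs1 and Sort1, sortilin family receptors of which sortilin pairs with p75 to bind proneurotrophins, rose (0.31 ± 0.05 SE, adjusted p = 0.00628, and 0.20 ± 0.04 SE, adjusted p = 0.0147). Mag, a myelin ligand of the p75 and Nogo receptor complex, fell (-0.27 ± 0.04 SE, adjusted p = 0.00631). Nradd, a p75-like death domain protein, fell too (-0.34 ± 0.08 SE, adjusted p = 0.0206). Arhgdia and Bdnf were also called lower, at -0.15 and -0.30. Of the 13 called signalling genes, Bcl3, Casp8, Mag, Rnf31, Sorcs1 and Sort1 stayed called with any one array left out. Calls of Chuk and Vcam1 were lost in 7 of the 8 such fits, Arhgdia and Bdnf in 6, Bid in 5, Nradd in 4 and Ikbkg in 2. The count fell to 7 without fasted replicate 1 or fed replicate 1 and to 8 without fasted replicate 2 or fed replicate 2.

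Markers of the cells that brain tissue could hold were read in 8 lists, beside the 8.96% of all genes called lower and 9.46% called higher. Of 15 microglia markers 6 were called lower and 0 higher, with a median difference of -0.14. Tmem119 (-0.42 ± 0.04 SE, adjusted p = 0.00185), Fcrls (-0.65 ± 0.08 SE, adjusted p = 0.00269), Aif1 (-0.54 ± 0.10 SE, adjusted p = 0.0132) and Trem2 (-0.22 ± 0.06 SE, adjusted p = 0.0329) had the smallest p. The summed microglial level ranged from 78.2 to 100.8 on fasted arrays and from 90.2 to 101.7 on fed arrays, which overlap. Each sum here adds linear signals, so the brightest markers weigh most. For microglia these were Siglech (mean log2 values of 4.89 in fasted and 5.09 in fed) and Itgam (4.79 and 4.80), neither called. Fasted and fed values of each of the 6 called microglia markers did not overlap, while those of the others did, except C1qb. Of 10 oligodendrocyte and precursor markers 1 was called higher and 3 lower, and their summed level was 92.2 to 100.2 on fasted and 102.0 to 109.4 on fed arrays. Of 8 astrocyte markers 2 were called higher and 1 lower, with summed levels of 58.9 to 63.0 on fasted and 51.8 to 54.5 on fed arrays. Of 8 neuron markers 0 were called in limma (2 at an unadjusted p under 0.05), with sums of 157.6 to 164.7 on fasted and 152.2 to 158.6 on fed arrays. Endothelial and mural markers had 2 of 10 called in each direction and choroid plexus markers 1 of 7 in each. Of 5 blood cell markers 0 were called in limma, also at an unadjusted p under 0.05, and 3 were called with the replicate block. The part of these cell types in the differences of the family was not tested.

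Across arrays, the 75th percentile of signal was 1651 to 1944 intensity units, 62.3% to 69.0% of probes were above background, 0 spots were saturated, and pairs of arrays correlated at 0.992 to 0.998 over the kept probes. Of the 58 family probes, 37 to 44 per array were above background. Precision is bounded by having 4 arrays a group.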

How the data were processed

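Members and lists were chosen with earlier results of these data known. The authors deposited scanner files with a processed intensity per spot, made with Feature Extraction 11.0.1.1 per the file headers (the submitters' processing notes name 10.10.1.1), and a series table of a linear ratio per probe, which equals the scanner signal over the array's 75th percentile divided by a constant per probe (median spread over arrays 0.000179 in log2). The baseline of that ratio is unknown. Its column medians were 0.970, 0.993, 0.973 and 0.987 on the fasted arrays and 0.987, 1.02, 0.991 and 1.02 on the fed arrays. Per the labels, 0.1 ug of total RNA went into each Cy3 labelling.

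From log2 signals the array's own 75th percentile, over spots other than controls, was subtracted. Control spots and outlier-flagged spots (128 to 217 per array) were dropped before averaging the spots of each probe. Probes well above background on at least 4 of 8 arrays were kept, 26066 of 39429. Fasted minus fed was fitted with limma 3.58.1 in R 4.3.3 (lmFit, eBayes, two-sided), with Benjamini-Hochberg adjustment over all kept probes and a threshold of 0.05; slide 2 minus slide 1 was fitted with group in the model. A gene took its kept probe of highest mean signal. The procedure was tested on simulated data. RefSeq accessions matched 27427 probes (GRCm38.p6, used for names, neighbours and promoter windows).

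Named in full were family genes past the threshold, the 3 on either side of it and any with probes past it in opposite directions (none); of each signalling list, up to 4 genes past the threshold with the smallest p, otherwise the 2 with the smallest p. Arhgdia and Bdnf, probe disagreements, neighbours, undetected genes and Tnfrsf11b were named outside this rule, after their values were seen. Siglech, Itgam, C1qb, Cd4 and Cd3e were named in the same way. Of the marker lists only those of microglia and of T and B cells are given by gene. An item under this rule is left unreported.

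Replicate numbers come from the sample titles. Arrays of the same number deviated together from their groups' means, with correlations of 0.18 to 0.29, all above 0.1. The main fit, which gave the SEs and calls, did not pair them. Only the alternative fit with the replicate number as a block did. Same-numbered arrays also share a slide and neighbouring positions, which cannot be told apart from pairing.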

Additional observations from a re-analysis of the deposited data

Results flagged for a closer look

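In 54 genes, each group of 4 arrays was searched for 1 array far from the other 3, by a gap over 0.829 of the group's range. This flagged 5 of 108 groups, and chance flags about 1 in 20. Traf1 read -3.51 on fasted replicate 3, against a mean of -3.42 over the other fasted arrays. Tnfrsf10b read -2.89 on fasted replicate 3, against -3.04. Cd40 read -4.61 on fed replicate 4, against -4.14 over the other fed arrays. Bid read -0.91 on fed replicate 4, against -1.03. Arhgdia read 4.53 on fasted replicate 1, against 4.62.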

How the results depend on the processing

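Over all genes, 2946 were called; normexp gave 1915 and no filter on dim probes 1730. Slide 1 alone and slide 2 alone, with 2 arrays a group, gave 0 calls over all genes, in the family and in the signalling lists, at 3700 and 2470 genes with an unadjusted p under 0.05 in limma, 6 and 6 of them in the family and 16 and 14 in the signalling lists. Without 1 array, calls ran from 1861 to 2543. Family genes called higher stayed at 0 in all alternatives (2 at an unadjusted p under 0.05). Family genes called lower, 7, became 4 with the replicate block and 4 to 6 without 1 array; other alternatives gave 5 to 7, and with no filter Ngfr, Tnfsf12 and Traf3 were not called while Tnfrsf17, below background on all arrays, was. Signalling genes, 13, became 7 with normexp and 7 to 13 without 1 array. The family's median of -0.03 was -0.055 with normexp, -0.11 with no filter, -0.055 on slide 1 alone, -0.12 with the dimmest probe and -0.080 to -0.019 without 1 array. Slide calls, 119, became 684 with normexp, 58 with no filter and 19 to 66 without 1 array. The 7 called family genes kept their direction in all 20 alternatives. For alternatives that only left arrays out, this had to follow because the fasted and fed values of these genes did not overlap. Apart from the calls named with their genes, the replicate block ended no other call of a family or signalling gene. Fewer arrays or more tested probes are part of some of these alternatives; for normexp, and for the replicate block, the cause was not tested. Dim genes such as Tnfrsf8 and Tnfrsf13c have the widest errors.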
